A study of Gallus gallus with 21 samples.

Results

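The dermal papilla (DP) of the early growth chicken feather follicle was compared with the central pulp (cPP) of the same stage. Every gene with at least 1 TPM in at least 3 of the 6 DP and cPP libraries was taken, which gave 13418 of the 13815 genes in the table. TPM gives each gene as a length-corrected part of the transcripts of its library. Of these genes 10276 had a symbol, 3112 had only an Ensembl identifier, and 30 had a date number or a repeated name in place of one. Of the 13418, 228 reached the minimum only through DP and 502 only through cPP, so differences of genes near the minimum were partly fixed by the choice.

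All birds were untreated 1 year old male white leghorn chickens, and the tissue was the follicle of the adult contour feather. Experiment 1 held DP, dermal sheath (DS), peripheral pulp (pPP) and cPP at early growth, with 3 libraries each, from bulk tissue. Experiment 2, a table of its own, held 3 libraries of apical dermal papilla at rest (resting aDP) and 2 of whole pulp at early growth, which are used here as separate libraries of papilla and pulp, beside later pulp stages. Nothing in the labels tells if the replicates were different birds. The p-values therefore rest on the spread between these libraries, which may be technical.

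A feather follicle renews its feather in cycles. The dermal papilla is the small, lasting mesenchymal body at its base that induces the epidermis to make a feather, as the papilla of a hair follicle does for hair. The pulp is the soft, vascular mesenchyme that fills the growing feather from the papilla upward, feeds it, and is resorbed when the feather is complete. Secreted BMP, Wnt, FGF and hedgehog signals and their antagonists pass between mesenchyme and epidermis in both kinds of follicle.

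Differences were tested with limma on log2(TPM + 1), and each log2 fold change is DP over cPP on that scale, where weakly expressed genes appear to change less than in TPM. It is followed by its standard error (SE) and the p-value adjusted over all 13418 genes, called at 0.05. The number of genes at 1 TPM or more was 12569 to 13142 per library in experiment 1, and sequencing depth is unknown because TPM keeps none. Replicates differed with an SD of 0.41 to 0.50 of the log2 values over genes, and no DP or cPP library stood apart. The first principal component of the 12 libraries, with 63.4% of the variance, separated DP and DS from both pulp parts.

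Limma called 7261 of 13418 genes (54.1%), of which 3248 were higher in DP (24.2%) and 4013 lower (29.9%). The change was at least 2-fold in 1410 higher and 1982 lower genes, and at least 16-fold in 113 and 101. The median log2 fold change of all genes was -0.06. In 8692 genes (64.8%) the DP and cPP libraries did not overlap, and this includes changes too small to be called. In bulk tissue, fewer cells of a type and less RNA per cell cannot be told apart, which holds for every difference below. Because so many genes differed, the counts for gene groups are read against 24.2% higher and 29.9% lower.

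The libraries were first compared on genes taken as markers, which were chosen with earlier results of these data known. Of the genes taken as papilla markers, FGF7, CHRDL1, NOG and ALX4 were higher in DP, while TBX18 and WIF1 were lower. CHRDL1 and NOG reached the minimum only through DP, so their direction was partly fixed by the choice. CHRDL1 also averaged 150 TPM in DS, beside 168 TPM in DP. TBX18, a T-box transcription factor known from the mouse hair papilla, had 23.8, 18.3 and 21.3 TPM in the DP libraries, against 80.2, 84.7 and 95.0 TPM in the cPP libraries (log2 fold change -1.99 ± 0.12, adjusted p = 8.3e-08). WIF1, a secreted Wnt inhibitor, had 14.6, 11.5 and 14.5 TPM in the DP libraries, against 77.7, 91.6 and 91.8 TPM in the cPP libraries (log2 fold change -2.60 ± 0.31, adjusted p = 2.1e-05). In both genes all 3 DP libraries lay below all 3 cPP libraries, against their use as papilla markers in this comparison. In experiment 2 WIF1 was higher in resting aDP than in early growth pulp (log2 fold change 3.85). SOX2 was not among the genes tested. All 3 genes taken as pulp markers, ASIP, CXCL14 and CYTL1, were lower in DP. Given that choice, nothing is read from their shared direction.

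Among the genes named here the largest change was that of WFIKKN2, a secreted protease-inhibitor-like protein and binder of GDF11 and myostatin. It had 3369.6, 3950.0 and 3320.4 TPM in the DP libraries, against 0.408, 0.398 and 0 TPM in the cPP libraries (log2 fold change 11.46 ± 0.27, adjusted p = 1.6e-10). It was near 0 throughout cPP and among the abundant transcripts in every DP library. Osteocrin, OSTN, a hormone-like peptide of bone and muscle, had 587, 927 and 859 TPM in the DP libraries, against 0.0729, 0.0688 and 0.0890 TPM in the cPP libraries (log2 fold change 9.49 ± 0.14, adjusted p = 3.4e-12). It was likewise near 0 in every cPP library. WFIKKN2 and OSTN reached the minimum of 1 TPM only through DP, so a difference toward DP was partly fixed by the choice.

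**Figure D1:**
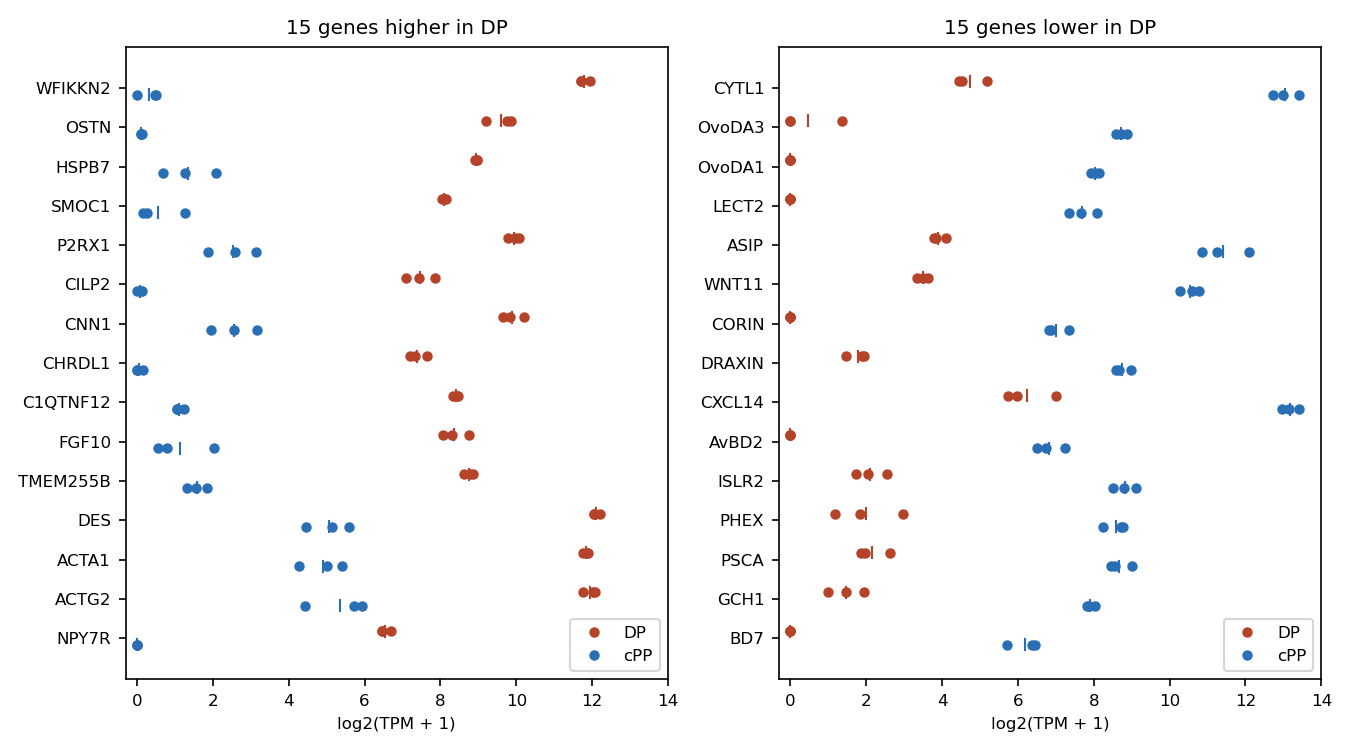
Level of the 15 genes with the largest and the 15 with the smallest log2 fold change, as log2(TPM + 1) on the horizontal axis, with 1 point per library, DP above cPP in each row and a bar at the mean of 3 libraries. The genes were chosen among those whose DP and cPP libraries did not overlap, so nothing is read from the lack of overlap. NPY7R is at 0 in all cPP libraries, and OvoDA1, LECT2, CORIN, AvBD2 and BD7 are at 0 in all DP libraries.

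Other genes with large changes toward DP had varied products. SMOC1, a matricellular calcium-binding protein, averaged 272 ± 11.7 TPM in DP and 0.579 ± 0.725 TPM in cPP, and CILP2, a cartilage matrix protein, 179.7 ± 48.9 TPM in DP and 0.0601 ± 0.0537 TPM in cPP (SD, n = 3 each). C1QTNF12, a secreted C1q-related protein, averaged 339 ± 16.7 TPM in DP and 1.18 ± 0.169 TPM in cPP (SD, n = 3 each). All 3 were at or near 0 in the pulp by comparison, and CILP2 reached the minimum only through DP. P2RX1, the ATP-gated cation channel of smooth muscle, had 876, 1001 and 1070.3 TPM in the DP libraries, against 7.88, 5.05 and 2.66 TPM in the cPP libraries (log2 fold change 7.40 ± 0.29, adjusted p = 6.8e-09). NPY7R, a chicken receptor for neuropeptide Y, had 86.5, 103 and 87.3 TPM in the DP libraries and was listed at 0 in all 3 cPP libraries, so no fold is given. Neuropeptide Y itself, NPY, was also higher, with 19.6, 20.7 and 20.1 TPM in the DP libraries, against 3.17, 0 and 2.70 TPM in the cPP libraries (log2 fold change 3.09 ± 0.58, adjusted p = 8.6e-04). TMEM255B, a membrane protein gene, had a log2 fold change of 7.18.

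Most measured FGF genes were higher in DP. Of 17 measured genes of the list 11 were higher, 2 lower and 4 not called, with a median log2 fold change of 1.21. Of 9 listed ligands 5 were measured and all 5 were higher, but FGF16 and FGF2 reached the minimum of 1 TPM only through DP, so nothing is read from that count. Of the 15 other FGF genes 9 were higher and 2 lower. FGF10, the mesenchymal ligand of epithelial FGF receptors, had 268, 313 and 429 TPM in the DP libraries, against 0.733, 3.05 and 0.482 TPM in the cPP libraries (log2 fold change 7.25 ± 0.33, adjusted p = 1.5e-08). FGF7, also a mesenchymal signal to epithelium, had 812, 895 and 907 TPM in the DP libraries, against 159.6, 163 and 179 TPM in the cPP libraries (log2 fold change 2.37 ± 0.12, adjusted p = 1.5e-08). FGF10 was nearly limited to DP among these 6 libraries, whereas FGF7 was plentiful in cPP too. FGF16 had 6.22, 4.29 and 8.17 TPM in DP and was listed at 0 in all cPP libraries, and FGF2 and FGF18 were weakly expressed, with 3.19, 6.02 and 4.44 TPM in DP and 0.307, 0.374 and 0.0472 TPM in cPP for FGF2 and 1.82, 2.85 and 3.39 TPM in DP and 0, 0.945 and 1.18 TPM in cPP for FGF18.

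Receptors split by gene. FGFR1 and FGFR4 were higher in DP (log2 fold changes 2.198 and 2.23), and FGFR2 and FGFR3 lower (-1.08 and -1.38). Genes that FGF signalling is known to induce were higher where called, 4 of 7. Of these, ETV5 (0.535) overlapped between the parts. It lost its call without DP replicate 1 (0.48, adjusted p = 0.093) and without other single libraries. The ETS factor ETV4 had 45.8, 36.8 and 42.4 TPM in the DP libraries, against 0.652, 3.51 and 1.24 TPM in the cPP libraries (log2 fold change 4.06 ± 0.29, adjusted p = 2.7e-07). The feedback inhibitor SPRY1 had 111, 102 and 115 TPM in the DP libraries, against 23.8, 25.6 and 26.3 TPM in the cPP libraries (log2 fold change 2.07 ± 0.19, adjusted p = 2.9e-06). Neither overlapped between the parts, while SPRY4, SPRED1 and SPRED2 were not called.

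BMP signalling showed ligands and antagonists on both sides. The list had 17 higher, 10 lower and 10 uncalled genes of 37. Among ligands BMP4 had 1002, 864 and 835 TPM in the DP libraries, against 108, 93.8 and 129 TPM in the cPP libraries (log2 fold change 3.03 ± 0.18, adjusted p = 7.6e-08). BMP7 had 158, 163 and 172 TPM in the DP libraries, against 34.1, 29.1 and 36.9 TPM in the cPP libraries (log2 fold change 2.27 ± 0.13, adjusted p = 4.3e-08). These BMP ligands were higher in every DP library, whereas BMP2 and BMP5 were lower (-2.03 and -2.35), with 5.15, 1.91 and 2.85 TPM in DP and 23.3, 11.6 and 14.3 TPM in cPP for BMP2. Receptors and SMAD transducers had 5 of 7 higher and none lower, with log2 fold changes of at most 1.23, and SMAD5, the smallest, lost its call when a library was left out.

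The secreted BMP antagonists were divided, with 7 higher, 6 lower and 2 uncalled of 15. Chordin-like 1, CHRDL1, had 145, 159 and 199 TPM in the DP libraries, against 0.121, 0 and 0 TPM in the cPP libraries (log2 fold change 7.33 ± 0.16, adjusted p = 7.4e-11). Noggin, NOG, had 17.8, 15.6 and 22.0 TPM in DP and was listed at 0 in every cPP library. CHRDL2 was higher as well, with 12.5, 9.37 and 13.3 TPM in DP and 0.196, 0.194 and 0.229 TPM in cPP (log2 fold change 3.39 ± 0.21, adjusted p = 1.0e-07). These 3 antagonists reached the minimum only through DP, and of the 12 others 4 were higher and 6 lower. Follistatin, FST, which binds activins and some BMPs, went the other way with 152, 123 and 118 TPM in the DP libraries, against 751, 691 and 888 TPM in the cPP libraries (log2 fold change -2.56 ± 0.27, adjusted p = 1.3e-05). SOSTDC1 was abundant in both parts and lower in DP, with 1398, 1403 and 1078 TPM in the DP libraries, against 2894, 3379.6 and 3359 TPM in the cPP libraries (log2 fold change -1.32 ± 0.12, adjusted p = 2.9e-06). BAMBI, a decoy receptor that BMP signalling induces, also fell (-2.25). NOG and CHRDL1 were thus higher, and FST, SOSTDC1 and BAMBI lower, in every DP library than in any cPP library.

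Genes known as BMP targets did not move as 1 group: of 7, ID1 was higher, MSX1 and HEY1 lower and 4 were not called. ID1, an inhibitor of differentiation factors, had 242, 199 and 208 TPM in DP and 112, 70.1 and 102 TPM in cPP (log2 fold change 1.21 ± 0.19, adjusted p = 1.8e-04). The homeobox gene MSX1 had 3.57, 2.03 and 3.50 TPM in the DP libraries, against 165, 151 and 196 TPM in the cPP libraries (log2 fold change -5.43 ± 0.22, adjusted p = 3.1e-09), so all 3 DP libraries were far below cPP. Of activin and TGF-beta genes, 8 were higher, 3 lower and 5 not called of 16. WFIKKN2 reached the minimum only through DP, and of the 15 others 7 were higher and 3 lower. Besides WFIKKN2, the latent TGF-beta binding proteins LTBP1 and LTBP2 were higher (1.13 and 1.56), as were TGFB2 (1.47) and the co-receptor ENG (1.31). The activin receptor ACVR2B was lower, with 1.73, 0.524 and 0 TPM in the DP libraries, against 24.1, 42.5 and 32.9 TPM in the cPP libraries (log2 fold change -4.37 ± 0.36, adjusted p = 8.4e-07). GDF11, a ligand of that receptor, was also lower (-0.90).

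**Figure D2:**
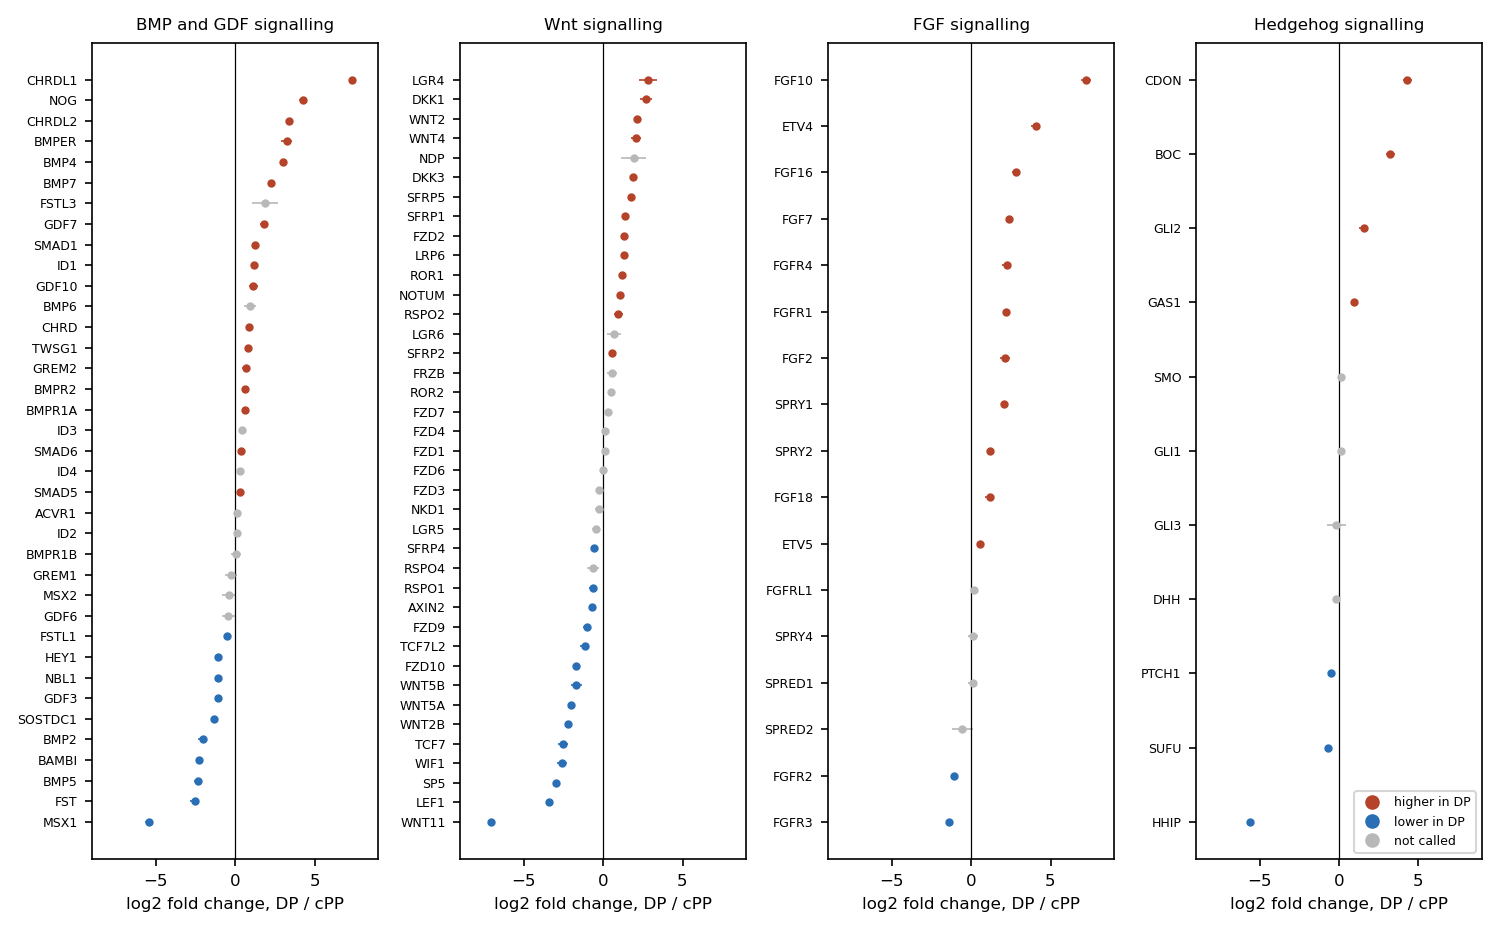
Log2 fold change of DP over cPP on the log2(TPM + 1) scale for genes of 4 pathway lists, with bars for the standard error and colour for the call at an adjusted p of 0.05. FGF ligands lie to the right, BMP antagonists and Wnt ligands lie on both sides, and WNT11, HHIP and MSX1 lie furthest to the left. The genes NOG, WNT2 and FGF16 are listed at 0 in cPP, so their position depends on the pseudocount.

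Wnt genes split by role. Of 39 measured, 13 were higher, 14 lower and 12 not called. WNT11, which acts mainly through non-canonical Wnt signalling, had 11.3, 9.16 and 10.4 TPM in the DP libraries, against 1246, 1750.1 and 1531 TPM in the cPP libraries (log2 fold change -7.06 ± 0.16, adjusted p = 9.2e-11). WNT5A, of the same kind, had 107, 90.3 and 90.3 TPM in the DP libraries, against 354, 409.7 and 392 TPM in the cPP libraries (log2 fold change -1.998 ± 0.11, adjusted p = 4.3e-08). WNT2B and WNT5B were lower too (-2.21 and -1.70), with no DP library reaching a cPP library in WNT11, WNT5A or WNT2B. Of the 10 measured ligands, R-spondins included, 5 were lower and 3 higher. WNT2 reached the minimum only through DP, and of the 9 others 5 were lower and 2 higher. WNT4 was higher in DP at 8.25, 7.89 and 8.50 TPM in DP and 0.792, 1.63 and 1.22 TPM in cPP (log2 fold change 2.08 ± 0.30, adjusted p = 1.0e-04). WNT2 had 3.73, 2.49 and 3.91 TPM in DP and was listed at 0 in all cPP libraries.

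Secreted Wnt antagonists were mostly higher in DP, 6 of 9, with WIF1 and SFRP4 lower, though SFRP4 lost its call without DP replicate 1 (-0.48, adjusted p = 0.086). Of these 9, 1 reached the minimum only through DP, and of the 8 others 5 were higher and 2 lower. DKK3 averaged 1235 ± 98.7 TPM in DP and 341 ± 50.9 TPM in cPP and SFRP1 642 ± 27.6 TPM in DP and 245 ± 47.1 TPM in cPP (SD, n = 3 each), with log2 fold changes of 1.86 and 1.40. SFRP1, WNT5B and FST were picked from the lists after their values were seen. DKK1, which blocks the LRP co-receptors, had 33.2, 19.7 and 33.2 TPM in the DP libraries, against 5.76, 1.78 and 3.90 TPM in the cPP libraries (log2 fold change 2.68 ± 0.39, adjusted p = 1.1e-04). Of canonical target genes 5 of 6 were lower and none higher, but 1 reached the minimum only through cPP, and of the 5 others 4 were lower. LEF1, a transcription factor and target of beta-catenin signalling, had 4.25, 6.41 and 3.71 TPM in the DP libraries, against 71.4, 51.9 and 55.6 TPM in the cPP libraries (log2 fold change -3.40 ± 0.21, adjusted p = 8.2e-08). SP5 had 17.2, 10.6 and 10.9 TPM in the DP libraries, against 108, 98.1 and 109 TPM in the cPP libraries (log2 fold change -2.96 ± 0.21, adjusted p = 2.9e-07). TCF7 and AXIN2 were also lower (-2.52 and -0.72). LEF1 and SP5 were expressed in DP at a level well under every cPP library.

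Of 12 hedgehog genes 4 were higher, 4 lower and 4 uncalled, but HHIP reached the minimum only through cPP. Of the 11 others 4 were higher and 3 lower. The ligand-binding co-receptors CDON and BOC were higher in DP. CDON had 37.1, 30.7 and 38.8 TPM in the DP libraries, against 0.927, 0.443 and 1.25 TPM in the cPP libraries (log2 fold change 4.30 ± 0.28, adjusted p = 1.2e-07). BOC had 519, 478 and 519 TPM in the DP libraries, against 57.9, 42.3 and 59.9 TPM in the cPP libraries (log2 fold change 3.23 ± 0.29, adjusted p = 3.1e-06). HHIP, a target gene that binds and holds back hedgehog ligands, had 0.303, 0.291 and 0.0962 TPM in the DP libraries, against 52.6, 68.5 and 54.3 TPM in the cPP libraries (log2 fold change -5.59 ± 0.20, adjusted p = 1.1e-09). GLI1, another target, had 21.6, 17.0 and 20.4 TPM in DP and 17.9, 16.0 and 19.7 TPM in cPP and was not called, so the targets did not move together. Of 11 Notch genes 4 were higher and 3 lower, and the median log2 fold change of -0.09 turned to 0.16 without cPP replicate 3.

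Among other growth factor genes 12 of 37 were higher and 10 lower. Of these 37, 1 reached the minimum only through DP and 2 only through cPP. Of the 34 others 11 were higher and 8 lower. PTHLH, parathyroid hormone-related peptide, had 3.45, 3.03 and 4.06 TPM in the DP libraries, against 171, 168 and 151 TPM in the cPP libraries (log2 fold change -5.19 ± 0.13, adjusted p = 1.5e-10). IGF2 was lower (-1.80), while IGF-binding protein genes IGFBP2 and IGFBP7 were higher, and IGFBP4 lower. IGFBP2 had 2035, 1858 and 1877 TPM in the DP libraries, against 195, 97.2 and 159 TPM in the cPP libraries (log2 fold change 3.72 ± 0.59, adjusted p = 3.7e-04). PDGFC averaged 126 ± 20.4 TPM in DP and 20.7 ± 1.15 TPM in cPP (SD, n = 3 each; log2 fold change 2.53 ± 0.12, adjusted p = 1.1e-08), and the receptor PDGFRA was lower (-1.20). NPR2, receptor of C-type natriuretic peptide, had 58.8, 43.4 and 59.4 TPM in DP and 5.84, 3.47 and 4.07 TPM in cPP (log2 fold change 3.34 ± 0.27, adjusted p = 8.8e-07), and was higher in DP as OSTN was.

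Smooth muscle genes had the highest median change toward DP among the 34 lists. Of 29 measured genes 27 were higher and none lower (background 24.2% higher), with a median log2 fold change of 3.44. Their summed level was 46366 to 50968 TPM in the DP libraries and 3374 to 4311 TPM in the cPP libraries. Of the 29 genes 1 reached the minimum only through DP, and of the 28 others 26 were higher. Desmin, DES, the intermediate filament of muscle, had 4239.8, 4214 and 4767 TPM in the DP libraries, against 47.2, 20.8 and 34.2 TPM in the cPP libraries (log2 fold change 7.05 ± 0.27, adjusted p = 5.4e-09). Smooth muscle myosin heavy chain, MYH11, had 4362, 5269 and 4821 TPM in the DP libraries, against 78.0, 51.1 and 59.9 TPM in the cPP libraries (log2 fold change 6.25 ± 0.27, adjusted p = 1.1e-08). Filament genes of this kind are typical of contractile cells. TAGLN (transgelin), an actin-binding protein, had 9719, 8101 and 10020.3 TPM in the DP libraries, against 253, 89.2 and 175 TPM in the cPP libraries (log2 fold change 5.86 ± 0.38, adjusted p = 4.4e-07). The DP libraries were close to each other in all 3 genes and far above cPP. The enteric actin ACTG2 and the skeletal actin ACTA1 averaged 3986 ± 461 TPM in DP and 44.0 ± 20.7 TPM in cPP and 3680.0 ± 158 TPM in DP and 30.5 ± 11.8 TPM in cPP (SD, n = 3 each). ACTA2, the vascular smooth muscle actin, was less different, with 3796, 4674 and 3734 TPM in the DP libraries, against 734, 593 and 621 TPM in the cPP libraries (log2 fold change 2.64 ± 0.13, adjusted p = 1.5e-08). Actin genes are alike in sequence, and how reads were divided among them is not known here.

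Calponin, CNN1, had 906, 800.4 and 1189 TPM in the DP libraries, against 7.90, 2.90 and 4.94 TPM in the cPP libraries (log2 fold change 7.33 ± 0.32, adjusted p = 1.5e-08). The small heat-shock protein of muscle, HSPB7, had 484, 494 and 497 TPM in the DP libraries, against 3.21, 1.41 and 0.611 TPM in the cPP libraries (log2 fold change 7.60 ± 0.32, adjusted p = 7.3e-09). Myocardin, MYOCD, the co-activator that switches on smooth muscle genes, had 112, 107 and 112 TPM in the DP libraries, against 1.79, 0.118 and 1.86 TPM in the cPP libraries (log2 fold change 5.75 ± 0.30, adjusted p = 2.2e-08). All 3 were far lower in every cPP library than in any DP library. SRF, the partner of MYOCD, was higher by less (1.15), and MRTFA, a related co-activator, was not called at 26.8, 25.3 and 26.8 TPM in DP and 28.5, 23.7 and 31.9 TPM in cPP. VCL, the focal adhesion protein vinculin, was the other uncalled gene. Mural cell markers were mixed in the same libraries: RGS5, MCAM and PDGFRB were higher, KCNJ8 and ABCC9 lower and ANPEP not called, and ABCC9 lost its call without DP replicate 3 (-0.84, adjusted p = 0.06). RGS5 had 2703, 3008 and 2886 TPM in the DP libraries, against 411, 374 and 384 TPM in the cPP libraries (log2 fold change 2.88 ± 0.15, adjusted p = 2.8e-08), and the list summed to 3037 to 3318 TPM in the DP libraries and 598 to 637 TPM in the cPP libraries. Its part in the smooth muscle difference was not tested. Of 5 measured sarcomere genes ACTA1, TNNT2 and TNNC1 were higher, the troponins at 8.92, 7.26 and 5.31 TPM in DP and 0, 0.0448 and 0.0386 TPM in cPP for TNNT2 and 25.9, 26.6 and 16.4 TPM in DP and 15.5, 2.71 and 5.63 TPM in cPP for TNNC1. TNNT2 reached the minimum only through DP, and of the 4 others 2 were higher.

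**Figure D3:**
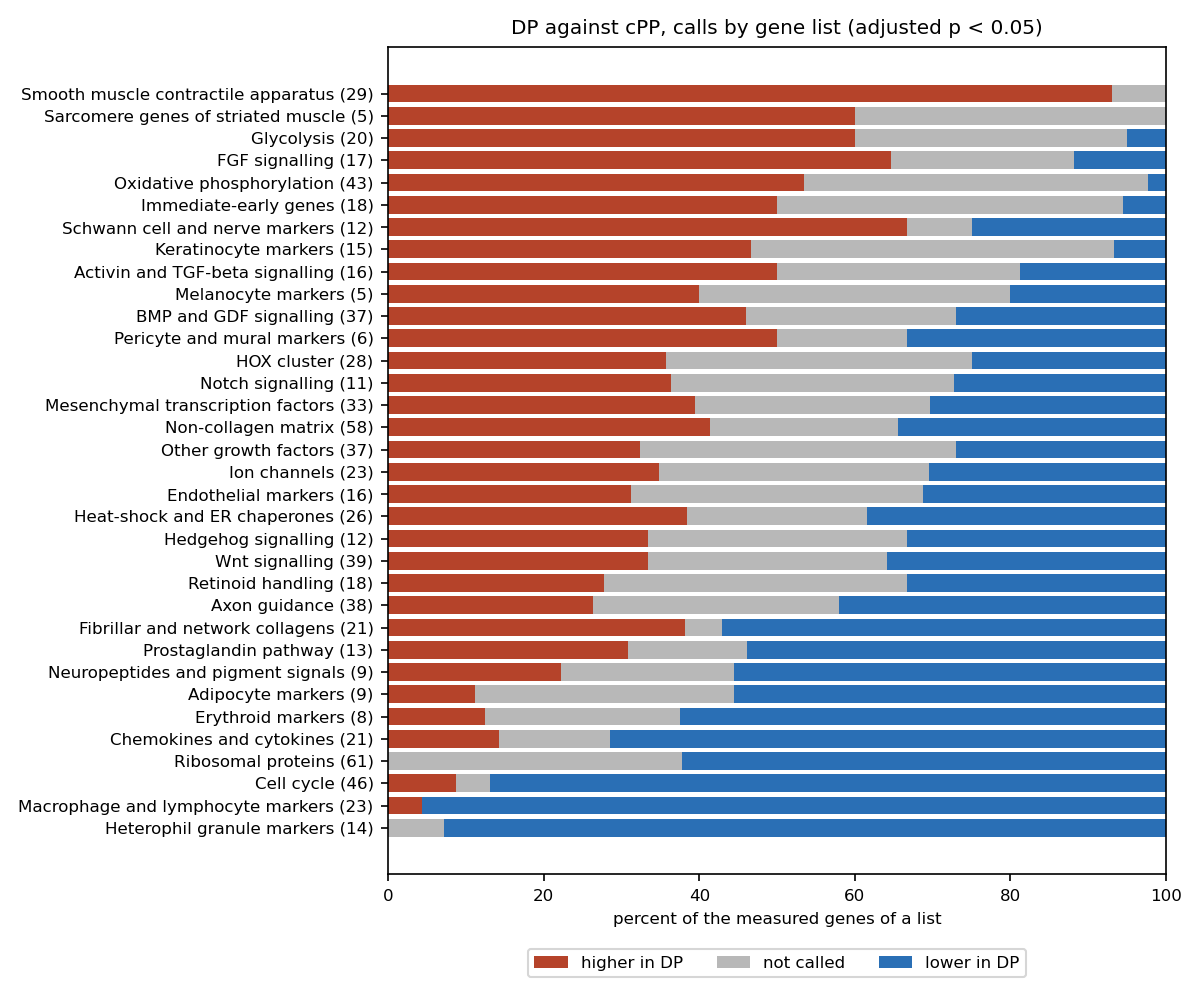
Share of each gene list called higher in DP, not called and called lower in DP at an adjusted p of 0.05, in percent of the measured genes, whose number stands after each name. Smooth muscle genes stand at the top with 27 of 29 higher, and cell cycle, leukocyte and heterophil genes at the bottom with 40 of 46, 22 of 23 and 13 of 14 lower. Nothing is read from the heterophil bar, since 11 of its genes reached the minimum only through cPP.

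Matrix genes differed in kind more than in number. Of 21 collagen genes 8 were higher and 12 lower. COL28A1 reached the minimum only through DP and COL2A1 only through cPP. Of the 19 others 7 were higher and 11 lower. COL28A1 had 19.8, 56.1 and 62.1 TPM in the DP libraries, against 0.0335, 0.0391 and 0.0332 TPM in the cPP libraries (log2 fold change 5.35 ± 0.32, adjusted p = 6.8e-08). COL12A1, a collagen that coats fibrils, had 424, 448 and 543 TPM in the DP libraries, against 86.5, 95.4 and 104 TPM in the cPP libraries (log2 fold change 2.29 ± 0.15, adjusted p = 1.1e-07). Both were higher in every DP library than in any cPP library. COL13A1, a membrane collagen, had 2.86, 2.05 and 1.86 TPM in the DP libraries, against 91.5, 129.6 and 95.1 TPM in the cPP libraries (log2 fold change -5.02 ± 0.18, adjusted p = 1.4e-09). COL14A1, the relative of COL12A1, had 22.4, 26.6 and 24.7 TPM in the DP libraries, against 169, 164 and 180.5 TPM in the cPP libraries (log2 fold change -2.75 ± 0.11, adjusted p = 2.2e-09). COL12A1 and COL14A1 therefore went in opposite directions. COL1A2, a chain of the main fibrillar collagen, averaged 7219 ± 799.8 TPM in DP and 9175 ± 627 TPM in cPP (SD, n = 3 each; log2 fold change -0.35 ± 0.10, adjusted p = 0.013), a call that quantile normalization removed and turned in sign (0.19). COL2A1, the fibrillar collagen of cartilage, was lower by more (-3.84), and reached the minimum only through cPP.

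Of 58 other matrix genes 24 were higher and 20 lower. Of these 58, 2 reached the minimum only through DP and 1 only through cPP. Of the 55 others 22 were higher and 19 lower. Small leucine-rich proteoglycans, which bind collagen fibrils, had 5 of 8 higher. FMOD reached the minimum only through DP, and of the 7 others 4 were higher and 1 lower. Fibromodulin, FMOD, had 81.3, 75.6 and 107 TPM in the DP libraries, against 0.972, 0.672 and 0.704 TPM in the cPP libraries (log2 fold change 5.63 ± 0.38, adjusted p = 3.2e-07). Podocan, PODN, had 355, 418 and 389 TPM in the DP libraries, against 11.5, 7.62 and 7.11 TPM in the cPP libraries (log2 fold change 5.34 ± 0.15, adjusted p = 2.1e-10). Neither overlapped between the parts. Aggrecan, ACAN, a cartilage proteoglycan, had 50.0, 47.4 and 67.4 TPM in the DP libraries, against 2.80, 0.520 and 1.03 TPM in the cPP libraries (log2 fold change 4.61 ± 0.36, adjusted p = 1.0e-06). MATN2, a matrilin, had 51.4, 65.9 and 61.6 TPM in the DP libraries, against 0.0396, 0.380 and 0.0434 TPM in the cPP libraries (log2 fold change 5.72 ± 0.17, adjusted p = 2.9e-10). All 4 were high in each DP library and low in each cPP library, and MATN2, like FMOD, reached the minimum only through DP. NOV, a matricellular CCN family protein, was higher by 3.85 on the log2 scale. Elastic fibre genes leaned to the pulp, with 6 of 12 lower and 2 higher. Fibrillin 2, FBN2, had 5.35, 4.95 and 2.83 TPM in the DP libraries, against 325, 429 and 374 TPM in the cPP libraries (log2 fold change -6.16 ± 0.17, adjusted p = 2.0e-10), and FBN3 and EFEMP1 were lower too (-2.51 and -2.62), while FBLN5 was higher (2.56). SPARC, a collagen-binding matricellular protein, averaged 9356 ± 736 TPM in DP and 14453 ± 1161 TPM in cPP (SD, n = 3 each; log2 fold change -0.63 ± 0.07, adjusted p = 1.6e-05), and under quantile normalization its sign turned (0.08). Among proteases and inhibitors MMP2 and TIMP2 were higher in DP (1.21 and 1.41), and the leukocyte genes CTSS and MMP9 lower (-2.56 and -2.67). MMP9 reached the minimum only through cPP.

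Patterning transcription factors were called in both directions. Of 33 measured 13 were higher and 10 lower (background 24.2% higher and 29.9% lower), so no direction is read from the list. Of these 33, 2 reached the minimum only through DP, and of the 31 others 11 were higher and 10 lower. TBX4, a T-box factor of leg identity, had 1.51, 0.981 and 0.298 TPM in the DP libraries, against 40.5, 33.1 and 37.0 TPM in the cPP libraries (log2 fold change -4.34 ± 0.22, adjusted p = 2.1e-08). EN1, an engrailed homeobox factor, had 4.89, 3.62 and 3.46 TPM in the DP libraries, against 65.8, 71.1 and 64.5 TPM in the cPP libraries (log2 fold change -3.78 ± 0.16, adjusted p = 4.9e-09). TFAP2C had 33.9, 26.7 and 31.1 TPM in the DP libraries, against 267, 217 and 254 TPM in the cPP libraries (log2 fold change -2.97 ± 0.17, adjusted p = 4.5e-08). All 3 were lower in every DP library. TWIST2, a mesenchymal basic helix-loop-helix factor, was higher, with 332, 337 and 330.2 TPM in the DP libraries, against 129, 106 and 126 TPM in the cPP libraries (log2 fold change 1.47 ± 0.09, adjusted p = 1.1e-07). ALX4, a homeobox factor of skin mesenchyme, had 144, 124 and 149 TPM in the DP libraries, against 81.4, 47.8 and 68.2 TPM in the cPP libraries (log2 fold change 1.10 ± 0.22, adjusted p = 0.0015). Of 28 HOX genes, which record position along the body, 10 were higher, 7 lower and 11 not called, near the background. HOXD8 had 181, 153 and 170.1 TPM in the DP libraries, against 34.8, 39.4 and 41.1 TPM in the cPP libraries (log2 fold change 2.099 ± 0.20, adjusted p = 4.3e-06). HOXA9 had 41.6, 41.4 and 54.9 TPM in the DP libraries, against 122, 108 and 129 TPM in the cPP libraries (log2 fold change -1.37 ± 0.17, adjusted p = 2.4e-05). HOXA10 was lower too (-1.05), while HOXA7 of the same cluster was higher (1.01).

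Among the genes named here, those most depleted in DP were led by CYTL1. This small secreted protein had 35.7, 21.0 and 21.9 TPM in the DP libraries, against 6834, 10983 and 8101 TPM in the cPP libraries (log2 fold change -8.32 ± 0.27, adjusted p = 1.7e-09). ASIP, agouti signalling protein, which turns melanocytes from black to yellow pigment, had 16.1, 12.8 and 13.3 TPM in the DP libraries, against 1834, 4367 and 2436 TPM in the cPP libraries (log2 fold change -7.49 ± 0.27, adjusted p = 2.8e-09). CORIN, a membrane protease that marks the hair papilla in mice and there limits agouti action, had 116, 163 and 113 TPM in cPP and was listed at 0 in every DP library. ASIP and CORIN were thus both found on the pulp side, but CORIN reached the minimum only through cPP, so its side was partly fixed by the choice. The chemokine CXCL14 had 52.8, 62.2 and 128 TPM in the DP libraries, against 7919, 10886 and 9012 TPM in the cPP libraries (log2 fold change -6.92 ± 0.47, adjusted p = 9.4e-07), with no overlap between the parts.

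Other strongly depleted genes had varied functions. DRAXIN, a repellent for growing axons, had 2.74, 2.87 and 1.78 TPM in the DP libraries, against 506, 407 and 382 TPM in the cPP libraries (log2 fold change -6.97 ± 0.15, adjusted p = 7.4e-11). ISLR2, a membrane protein of growing axons, had 4.87, 3.13 and 2.29 TPM in the DP libraries, against 553, 364 and 447 TPM in the cPP libraries (log2 fold change -6.70 ± 0.20, adjusted p = 3.0e-10). PHEX, a peptidase of phosphate balance, averaged 3.57 ± 2.95 TPM in DP and 385 ± 71.7 TPM in cPP (SD, n = 3 each), PSCA, a surface protein, 3.57 ± 1.37 TPM in DP and 413 ± 89.5 TPM in cPP, and GCH1, the first enzyme of tetrahydrobiopterin synthesis, 1.88 ± 0.934 TPM in DP and 239.7 ± 19.0 TPM in cPP. All 5 were lower in all DP libraries, with log2 fold changes of -6.44 or below. Ovodefensins are antimicrobial peptides of birds: OvoDA3 had 0, 1.58 and 0 TPM in the DP libraries, against 471, 419.6 and 382 TPM in the cPP libraries (log2 fold change -8.27 ± 0.34, adjusted p = 6.8e-09), and OvoDA1 had 281, 263 and 240.4 TPM in cPP and was listed at 0 in DP. These belong to a family of like genes, so the division of reads between them is uncertain. Over the wider axon guidance list 10 of 38 genes were higher and 16 lower, but 1 reached the minimum only through DP and 3 only through cPP. Of the 34 others 9 were higher and 13 lower. SEMA3C, which reached the minimum only through DP, went against DRAXIN, with 60.7, 68.0 and 65.4 TPM in the DP libraries, against 0.0891, 0.858 and 0.465 TPM in the cPP libraries (log2 fold change 5.51 ± 0.30, adjusted p = 2.8e-08).

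Proenkephalin, PENK, the precursor of opioid peptides, was the most abundant transcript of cPP among genes with a symbol. It had 5830.0, 4709 and 4023 TPM in the DP libraries, against 23596, 22182 and 19703 TPM in the cPP libraries (log2 fold change -2.18 ± 0.15, adjusted p = 2.4e-07), so it was plentiful in both parts but lower in every DP library. Galanin, GAL, had 0.175, 0.110 and 0 TPM in the DP libraries, against 33.7, 105 and 49.8 TPM in the cPP libraries (log2 fold change -5.71 ± 0.32, adjusted p = 4.1e-08). Somatostatin, SST, had 4.07, 1.93 and 1.70 TPM in the DP libraries, against 207, 43.9 and 80.7 TPM in the cPP libraries (log2 fold change -4.74 ± 0.56, adjusted p = 3.6e-05). Of 9 peptide and pigment signal genes 5 were lower, and NPY and UTS2B were higher. Among them 1 reached the minimum only through DP and 1 only through cPP, and of the 7 others 4 were lower and 1 higher. Among genes with a symbol, the most abundant DP transcripts by mean TPM were SPARC, TAGLN, ACTB, COL1A2 and UBB. Those of cPP were PENK, SPARC, TMSB4X, CXCL14 and COL1A2.

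Cell cycle genes were lower in DP. Of 46 measured, 40 were lower and 4 higher (background 29.9% lower), with a median log2 fold change of -1.54. All 16 replication genes and all 22 mitosis genes measured were lower. The replication helicase subunit MCM3 had 11.5, 8.68 and 8.46 TPM in the DP libraries, against 47.3, 42.4 and 50.5 TPM in the cPP libraries (log2 fold change -2.19 ± 0.17, adjusted p = 5.4e-07). ANLN, which builds the cleavage furrow, had 5.00, 6.22 and 4.81 TPM in the DP libraries, against 34.6, 32.4 and 35.2 TPM in the cPP libraries (log2 fold change -2.47 ± 0.11, adjusted p = 8.6e-09). The mitotic kinase AURKA had 5.73, 6.16 and 4.03 TPM in the DP libraries, against 28.3, 30.4 and 33.1 TPM in the cPP libraries (log2 fold change -2.34 ± 0.15, adjusted p = 1.2e-07). No DP library reached a cPP library in these genes, though none was at 0 in DP. The 4 higher genes were the cyclin-kinase inhibitors CDKN1A and CDKN1B and the cyclins CCND2 and CCNE1. CDKN1B (p27) had 166, 154 and 182 TPM in the DP libraries, against 100.1, 90.7 and 93.0 TPM in the cPP libraries (log2 fold change 0.81 ± 0.08, adjusted p = 4.8e-06).

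Immune cell genes were lower in DP as well. Of 23 macrophage and lymphocyte markers 22 were lower and 1 higher (background 29.9% lower), with a median log2 fold change of -2.51, and their summed level was 1738 to 1809 TPM in the DP libraries and 5893 to 7225 TPM in the cPP libraries. PTPRC (CD45), the pan-leukocyte phosphatase, had 0.580, 1.31 and 0.438 TPM in the DP libraries, against 25.0, 37.3 and 28.4 TPM in the cPP libraries (log2 fold change -4.15 ± 0.28, adjusted p = 1.7e-07). LY86, a partner of a toll-like receptor relative on macrophages and B cells, had 31.9, 42.1 and 41.1 TPM in the DP libraries, against 399, 633 and 485 TPM in the cPP libraries (log2 fold change -3.67 ± 0.16, adjusted p = 7.5e-09). These genes mark leukocytes of several kinds. The complement gene C1QA of macrophages had 41.4, 38.3 and 39.5 TPM in the DP libraries, against 254, 238 and 227 TPM in the cPP libraries (log2 fold change -2.56 ± 0.11, adjusted p = 5.2e-09). Each was lower in all 3 DP libraries and none was at 0 in all of them. The exception was MRC1, a mannose receptor, with 17.4, 20.9 and 22.0 TPM in DP and 2.25, 1.42 and 2.19 TPM in cPP (log2 fold change 2.84 ± 0.24, adjusted p = 1.2e-06). All 6 measured genes of the chemokine list were lower, but CCL19, IL8 and LECT2 reached the minimum only through cPP, so nothing is read from that count. The 3 others were lower too. IL15 had 30.8, 33.2 and 32.2 TPM in the DP libraries, against 249.9, 385 and 343 TPM in the cPP libraries (log2 fold change -3.28 ± 0.15, adjusted p = 9.5e-09).

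Heterophils are the neutrophil-like granulocytes of birds. Of 14 measured genes of their granules 13 were lower in DP, but 11 reached the minimum of 1 TPM only through cPP and had to be lower, so nothing is read from that count. Of them 8 were listed at 0 in all DP libraries, among them LECT2, the beta-defensins AvBD2 and BD7 and the cathelicidins CATHL2 and CATHL3. LECT2 had 268, 163 and 201 TPM in cPP and AvBD2 had 149, 89.5 and 106 TPM. The list summed to 24.1 to 30.2 TPM in the DP libraries and 627 to 985 TPM in the cPP libraries. No fold is given for genes at 0, and a list median is left out because most members were at 0. Defensin and cathelicidin genes are near copies of each other, so single values are uncertain. LECT2 stood in both the heterophil and the chemokine list. The part of leukocytes and heterophils in the chemokine values was not tested.

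Markers of blood and epidermis were followed as measures of other tissue in the libraries. Hemoglobin genes of red cells were lower: HBA1 had 623, 768 and 785 TPM in DP and 1129, 1568 and 1219.8 TPM in cPP (log2 fold change -0.84 ± 0.29, adjusted p = 0.029), a call lost without DP replicate 1 (-0.73, adjusted p = 0.092) and without other single libraries. HBBA was alike (-0.80), and lost its call without DP replicate 1 (-0.71, adjusted p = 0.094). Of 8 erythroid genes 5 were lower, 1 higher and 2 not called. ALAS2 was the higher gene (0.28, adjusted p = 0.039), and lost its call without DP replicate 1 (0.27, adjusted p = 0.093). The 8 erythroid genes summed to 1191 to 1448 TPM in DP and 2001 to 2818 TPM in cPP. None of the 8 was listed at 0 in all libraries of a part. Of 15 epidermal markers 7 were higher in DP, 7 were not called and 1, the keratin KRT15, was lower. KRT15 had 17.2, 8.27 and 9.83 TPM in DP and 53.7, 54.6 and 53.0 TPM in cPP (log2 fold change -2.16 ± 0.27, adjusted p = 4.4e-05). Keratin KRT5 had 189.6, 103 and 102 TPM in the DP libraries, against 4.26, 26.7 and 17.8 TPM in the cPP libraries (log2 fold change 3.18 ± 0.57, adjusted p = 9.1e-04), against 3651 ± 639 TPM in DS (SD, n = 3), and the list summed to 321 to 534 TPM in DP and 118 to 215 TPM in cPP. Keratin genes are alike, so the value of a single keratin is uncertain. TP63, a defining epidermal factor, was not called at 4.45, 1.53 and 1.44 TPM in DP and 2.26, 0.329 and 2.12 TPM in cPP. The part of epidermis in any other difference was not tested.

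Endothelial markers had 5 higher, 5 lower and 6 uncalled of 16, and summed to 1355 to 1426 TPM in DP and 1351 to 1516 TPM in cPP. The pan-endothelial genes CDH5 and VWF were at 155, 174 and 159 TPM in DP and 199, 277 and 237 TPM in cPP and at 88.8, 109 and 103 TPM in DP and 117, 144 and 128 TPM in cPP, with VWF not called and CDH5 lower (-0.53, and -0.42, adjusted p = 0.053, without cPP replicate 2). Both pan-endothelial genes were well expressed in either part. Among lymphatic genes LYVE1 had 112, 150.2 and 163 TPM in the DP libraries, against 20.3, 11.3 and 16.2 TPM in the cPP libraries (log2 fold change 3.09 ± 0.22, adjusted p = 3.4e-07). MMRN1 had 54.5, 72.7 and 70.2 TPM in the DP libraries, against 1.67, 0.111 and 1.53 TPM in the cPP libraries (log2 fold change 5.08 ± 0.48, adjusted p = 5.0e-06). Both lymphatic genes were low in all cPP libraries. Of 12 nerve sheath and axon genes 8 were higher and 3 lower, and 2 of the higher ones reached the minimum only through DP. SOX10, a factor of Schwann cells, had 24.8, 24.9 and 29.8 TPM in DP and 6.77, 8.35 and 6.29 TPM in cPP, while MBP, UCH-L1 and PRPH were lower (-3.41, -3.23 and -0.76). PRPH lost its call without DP replicate 1 (-0.72, adjusted p = 0.088) and without other single libraries. Schwann cells ensheath the nerves that enter the follicle. Of 5 measured melanocyte markers 2 were higher, 1 lower and 2 not called. Among them 1 reached the minimum only through DP, and of the 4 others 1 was higher and 1 lower. The uncalled genes PMEL and TYRP1 were weak, with 1.66, 1.76 and 1.17 TPM in DP and 3.07, 0 and 0.464 TPM in cPP for PMEL and 2.88, 1.68 and 1.52 TPM in DP and 2.96, 0 and 0 TPM in cPP for TYRP1. MLANA, DCT, PECAM1 and HBAD were not among the genes tested. FABP4, a fatty acid binding protein of fat cells, macrophages and capillaries, had 74.3, 147 and 99.2 TPM in the DP libraries, against 2.70, 2.57 and 0 TPM in the cPP libraries (log2 fold change 5.46 ± 0.44, adjusted p = 1.4e-06), whereas 5 of the other 8 adipocyte genes were lower, PPARG among them (-1.14).

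The separate libraries of experiment 2 show what the same genes did between resting aDP and early growth pulp. Limma called 9769 of 14220 genes there (68.7%), 4792 higher (33.7%) and 4977 lower (35.0%). Stage and region differ from experiment 1: the papilla is at rest and only its apex, and the pulp is whole. Of 13043 genes tested in both, 3945 were called in the same direction and 1223 in opposite directions. The 1616 genes higher in both made up 52.3% of the genes higher in DP and 37.3% of those higher in resting aDP. The 2329 genes lower in both made up 59.4% and 50.7% of the lower genes.

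The largest changes of experiment 1 were followed separately. Of 93 shared genes at least 16-fold lower in DP, 86 (92.5%) were also lower in resting aDP and 2 were higher. Of 89 shared genes at least 16-fold higher in DP, 44 (49.4%) were also higher and 19 (21.3%) were lower in resting aDP. The difference between these shares was not tested. WFIKKN2 and OSTN fell below the minimum of experiment 2: WFIKKN2 had 0, 0 and 0.0891 TPM in the resting aDP libraries, against 0.182 and 0.283 TPM in the early growth pulp libraries, and OSTN had 0.0390, 0.0363 and 0.0947 TPM in the resting aDP libraries, against 0.206 and 0.263 TPM in the early growth pulp libraries. Both leading DP genes were thus near 0 in every library of that comparison. MYOCD also missed the minimum, with 2.60, 0.713 and 0.540 TPM in the resting aDP libraries, against 0.0207 and 0.114 TPM in the early growth pulp libraries.

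**Figure D4:**
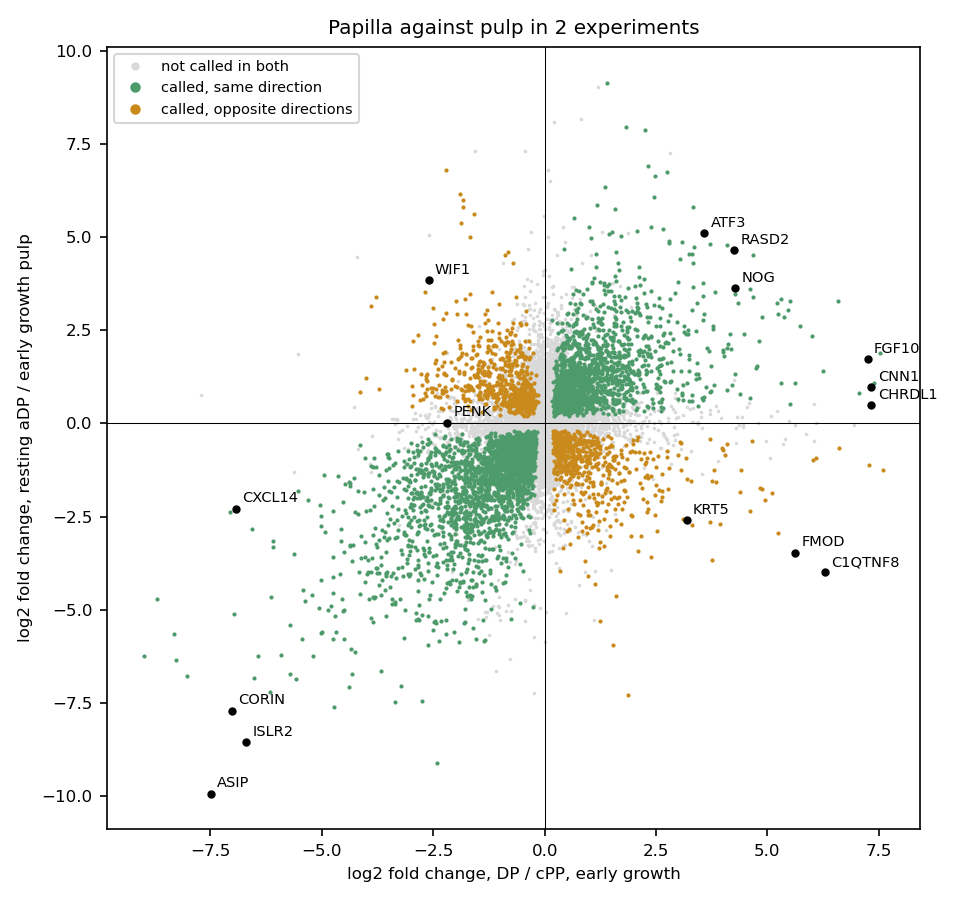
Log2 fold change of DP over cPP at early growth (horizontal) against that of resting aDP over early growth pulp (vertical), each from its own table, for the 13043 genes tested in both, with colour for calls in the same or opposite directions. ASIP, ISLR2 and CORIN lie at the lower left, NOG, RASD2 and ATF3 at the upper right, and C1QTNF8, FMOD and KRT5 at the lower right.

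Genes with the largest change kept in both experiments can be named. On the pulp side ASIP had 5.55, 1.96 and 6.36 TPM in the resting aDP libraries, against 6137 and 4295 TPM in the early growth pulp libraries, and ISLR2 had 0.653, 0.858 and 0.485 TPM in the resting aDP libraries, against 591 and 670.0 TPM in the early growth pulp libraries. PSCA, OvoDA1, OvoDA3 and CORIN were the other 4. On the papilla side NOG had 11.7, 14.7 and 11.3 TPM in the resting aDP libraries, against 0 and 0.184 TPM in the early growth pulp libraries, and a second noggin gene, NOG2, had 327, 292 and 297 TPM in DP and 16.6, 16.9 and 17.5 TPM in cPP in experiment 1 and 198, 212 and 203 TPM in the resting aDP libraries, against 7.05 and 5.82 TPM in the early growth pulp libraries. RASD2, a small GTPase, SBSPON, a matrix protein, ATF3, a stress-induced transcription factor, and MSRB3, a methionine sulfoxide reductase, were the others. ATF3 had 39.1, 75.5 and 31.6 TPM in DP and 2.91, 2.05 and 3.90 TPM in cPP in experiment 1. It had 79.6, 79.6 and 141 TPM in the resting aDP libraries, against 1.998 and 1.63 TPM in the early growth pulp libraries.

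Gene groups kept their direction unevenly, and their counts are read against 33.7% higher and 35.0% lower over all genes of experiment 2. Cell cycle genes were lower in resting aDP in 39 of 46 cases, including all 22 mitosis genes. Smooth muscle genes were not far from those shares, with 11 of 28 higher and 12 lower, so no direction is read from the list. DES had 12.7, 13.5 and 12.6 TPM in the resting aDP libraries, against 7.26 and 6.63 TPM in the early growth pulp libraries (log2 fold change 0.81), while ACTA2 had 30.6, 28.0 and 30.5 TPM in the resting aDP libraries, against 99.9 and 145 TPM in the early growth pulp libraries (log2 fold change -1.98). These 2 genes were weak in resting aDP beside DP of experiment 1, where DES averaged 4407 TPM and ACTA2 4068 TPM. Leukocyte markers were 8 higher and 13 lower of 23, and keratinocyte markers 1 higher and 12 lower of 15. FGF10 was higher in both (1.72 in experiment 2), whereas FGF7 was lower in resting aDP (-0.76). CXCL14, CYTL1 and WNT11 were lower there too (-2.29, -5.66 and -2.39), and PENK was not called, with 10702, 8976 and 10227 TPM in the resting aDP libraries, against 9924 and 9672 TPM in the early growth pulp libraries.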

How the data were processed

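The authors deposited 1 table of TPM values per gene for each experiment. The submitters' processing notes list TopHat2 2.1.1, Cufflinks and Cuffdiff and give no step for any of them. Total RNA was extracted with Trizol and went into TruSeq libraries, per the labels. If the kit used did not mark strand, a gene and an overlapping antisense gene cannot be told apart. The build was not given in the sources used here, nor the annotation. Ensembl identifiers were not paired with symbols: 1625 called genes carry only such an identifier. Because TPM is a part of a fixed total, abundant genes that rise make all others fall, and an exact 0 is written as listed at 0. Rows whose name was a date number (16) or a repeated name (14) were tested but not described.

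From these values limma 3.58.1 in R 4.3.3 was run on log2(TPM + 1) with trend and robust variances, with 1 mean per group, over the 12 libraries of experiment 1 (8 residual degrees of freedom), with the contrast DP minus cPP and two-sided Benjamini-Hochberg adjustment. Experiment 2 was fitted alone in the same way over its 9 libraries (5 residual degrees of freedom), on genes with at least 1 TPM in at least 2 of 5 libraries. The step was tested on simulated data. Groups and replicate numbers come from the labels.

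Genes named are the 15 largest and 15 smallest changes among called symbols that reached 10 TPM in the higher part and did not overlap; per role of a list, up to 5 genes with the smallest p-value and up to 3 called against most of the others; the 5 most abundant genes per part; up to 6 genes per pattern of calls in both experiments; and cell type markers. The members and lists were chosen with earlier results of these data known. Promoter motifs were planned but not analysed here. The values of 4 listed genes are not reported here, though the counts of their lists include them. The alternatives were another pseudocount, other filters, 2 other scalings, plain variances, a fit on 6 libraries, the replicate number as a block, and leaving out each library.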

Additional observations from a re-analysis of the deposited data

Results flagged for a closer look

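Of 1223 genes called in opposite directions in the 2 experiments, 1201 overlapped in neither. In experiment 1 every DP library lay on 1 side of every cPP library. In experiment 2 every resting aDP library lay on the other side of both early growth pulp libraries. All 1223 had already been called in both experiments, which favours libraries that do not overlap. Over all genes of experiment 1, 64.8% did not overlap between DP and cPP, and nothing is read from the count of 1201. The 12 described here are the 6 per direction whose smaller change of the pair was largest, among genes of at least 10 TPM in the higher part in both experiments. The difference between the experiments was not tested, and stage and region differ between them. Lower in DP but higher in resting aDP was WIF1, with 14.6, 11.5 and 14.5 TPM in DP and 77.7, 91.6 and 91.8 TPM in cPP in experiment 1 (log2 fold change -2.60). In experiment 2 it had 639, 600.0 and 617 TPM in the resting aDP libraries, against 48.4 and 36.4 TPM in the early growth pulp libraries (log2 fold change 3.85). The others of this kind, by their log2 fold change of resting aDP over early growth pulp, were JCHAIN at 3.16, an antibody joining chain, CEBPD at 2.93, CD83 at 2.79, a surface protein of dendritic cells, EXFABP at 2.34, a secreted lipocalin, and ZNF516 at 2.02. ZNF516 lost its call in experiment 1 without DP replicate 3 (-1.17, adjusted p = 0.096).

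Higher in DP but lower in resting aDP were C1QTNF8 at -4.002, PDLIM3 at -3.67, a protein of the muscle cytoskeleton, FMOD at -3.47, PHLDA3 at -2.69, KRT5 at -2.59 and SYNPO2 at -2.39, an actin-binding muscle protein. FMOD had 81.3, 75.6 and 107 TPM in DP and 0.972, 0.672 and 0.704 TPM in cPP in experiment 1. In experiment 2 it had 0.134, 0.193 and 0.192 TPM in the resting aDP libraries, against 10.5 and 13.7 TPM in the early growth pulp libraries, so the 2 kinds of papilla library lay on opposite sides of their pulp. KRT5 had 66.5, 111 and 82.3 TPM in the resting aDP libraries, against 461 and 577 TPM in the early growth pulp libraries. Of 15 keratinocyte markers 7 were higher in DP and 12 lower in resting aDP, and their part in the KRT5 difference was not tested.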

How the results depend on the processing

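The counts of genes called in either direction kept within 1.5 times of the reported 3248 higher and 4013 lower under every alternative run: a pseudocount of 0.1 (3208 and 3940), no filter (3271 and 4035), a filter at 5 TPM (2985 and 3365), the filter over all 12 libraries (3272 and 4037), median-of-ratios scaling (3548 and 3817), quantile normalization (3536 and 3711), no trend or robust variance (3200 and 3998), and the 6 libraries alone (3398 and 4160). Leaving out 1 library gave 2874 to 3024 higher and 3587 to 3816 lower.

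With the replicate number as a block 3276 genes were higher and 4054 lower. Whether the numbers pair the libraries is not known. Deviations from the group means of same-numbered DP and cPP libraries correlated at 0.15, 0.02 and 0.05. DP replicates 1 and 2 correlated best with the cPP library of their own number, and DP replicate 3 with cPP replicate 2 (0.08). Correlations this weak, over 3 libraries per part, cannot decide the question.

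Of 352 named genes 333 were called, 20 lost the call or turned under at least 1 alternative, 19 of them on leaving out a library, and 7 gained one. Quantile normalization turned SPARC to 0.084 (adjusted p = 0.49) and COL1A2 to 0.186 (adjusted p = 0.18), and the cause was not tested. Over the 34 lists, 28 list medians moved or turned in sign in the alternative runs. Among them the median of immediate-early genes, 0.89, was 0.41 without cPP replicate 2. The depth of weakly expressed genes cannot be judged from TPM, so values near 1 TPM are the least certain.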

Other observations

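Housekeeping groups differed by small amounts. Ribosomal protein genes had 38 of 61 lower in DP and none higher, with a median log2 fold change of -0.28, whereas nuclear genes of oxidative phosphorylation had 23 of 43 higher and COX7A2 lower (median 0.27). Glycolytic genes had 12 of 20 higher and 1 lower (median 0.46). Of these 20, 1 reached the minimum only through cPP, and of the 19 others 12 were higher and none lower. The medians of these 3 lists kept their sign under every alternative run. In resting aDP 46 of 61 ribosomal protein genes were higher than in early growth pulp. Of 26 heat-shock and endoplasmic reticulum chaperone genes 10 were higher and 10 lower. HSPB1, a small heat-shock protein, had 977, 767 and 929 TPM in the DP libraries, against 63.5, 39.8 and 46.6 TPM in the cPP libraries (log2 fold change 4.15 ± 0.21, adjusted p = 2.8e-08). PDIA6, which folds secreted proteins, had 313, 319.9 and 304 TPM in the DP libraries, against 801, 978 and 838 TPM in the cPP libraries (log2 fold change -1.47 ± 0.10, adjusted p = 1.2e-07).

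Prostaglandin genes went both ways, with 4 of 13 higher and 7 lower. PTGES, a prostaglandin E synthase, had 76.8, 61.8 and 68.4 TPM in the DP libraries, against 2.23, 1.74 and 0.767 TPM in the cPP libraries (log2 fold change 4.80 ± 0.31, adjusted p = 1.7e-07). PTGS2, the inducible cyclooxygenase, had 11.8, 11.3 and 13.0 TPM in the DP libraries, against 63.6, 61.1 and 34.2 TPM in the cPP libraries (log2 fold change -1.999 ± 0.21, adjusted p = 6.5e-06), whereas the other cyclooxygenase, PTGS1, was higher (0.75). HPGD, which degrades prostaglandins, had 1.79, 2.45 and 0.985 TPM in the DP libraries, against 34.2, 36.3 and 44.0 TPM in the cPP libraries (log2 fold change -3.87 ± 0.31, adjusted p = 7.7e-07). Of 18 retinoid genes 5 were higher and 6 lower, but 4 reached the minimum only through cPP and 1 only through DP. Of the 13 others 4 were higher and 2 lower. The retinaldehyde dehydrogenase ALDH1A1, which reached the minimum only through cPP, had 0.457, 0.188 and 0.264 TPM in the DP libraries, against 53.7, 40.9 and 49.7 TPM in the cPP libraries (log2 fold change -5.23 ± 0.32, adjusted p = 7.5e-08). RDH10, the enzyme of the step before, had 93.2, 102 and 104 TPM in the DP libraries, against 35.1, 16.5 and 20.1 TPM in the cPP libraries (log2 fold change 2.08 ± 0.22, adjusted p = 7.7e-06). The median of this list, -0.10, turned to 0.14 under quantile normalization.

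Ion channel genes had 8 of 23 higher and 7 lower, but 2 reached the minimum only through DP and 4 only through cPP. Of the 17 others 6 were higher and 4 lower. The mechanosensitive channel PIEZO2 had 38.8, 39.5 and 53.4 TPM in the DP libraries, against 2.06, 2.34 and 2.94 TPM in the cPP libraries (log2 fold change 3.70 ± 0.28, adjusted p = 5.3e-07). The calcium channel CACNA1H had 47.5, 41.1 and 52.2 TPM in the DP libraries, against 1.69, 1.41 and 2.68 TPM in the cPP libraries (log2 fold change 4.05 ± 0.20, adjusted p = 1.5e-08). The potassium channel partner KCNIP2 had 0.0301, 0.161 and 0.0557 TPM in the DP libraries, against 34.9, 15.3 and 24.3 TPM in the cPP libraries (log2 fold change -4.51 ± 0.27, adjusted p = 6.6e-08). Immediate-early genes, which respond within minutes to stimuli and to tissue handling, had 9 of 18 higher in DP and 1 lower, and 17 of 18 higher in resting aDP. DUSP1 had 166, 133 and 188 TPM in the DP libraries, against 23.7, 20.4 and 46.6 TPM in the cPP libraries (log2 fold change 2.46 ± 0.31, adjusted p = 5.0e-05), and in experiment 2 it had 991, 1022 and 1007 TPM in the resting aDP libraries, against 9.09 and 9.06 TPM in the early growth pulp libraries. What set their level in either experiment was not tested.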
